A study of Mus musculus with 4 samples.

Results

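Epididymal white fat from mice given CL 316243 for 3 days was compared with the same fat depot of control mice, with 1 Affymetrix mouse expression array on each side. Both arrays carried total RNA pooled from male C57 BL6 mice aged 3 to 4 months, and the treated mice received the compound at 3 nmol/hr. These are 2 of the 4 arrays of the series. The other two hold pools from mice dosed at the same rate for 1 day or 6 days, and their values stand beside those of day 3 below. All 3 treated groups are read against the 1 control array, so a control value that happens to be high or low enters every one of these contrasts. How many mice made up a pool, how the compound was delivered, what the control mice received and at what hour the fat was taken is not stated in the labels. The titles of the day 1 and day 3 samples write the compound's number differently from their descriptions. The name in the descriptions, CL 316243, is used here. Of the 12488 probe sets on an array, 66 were technical controls, and the remaining 12422 were compared.

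CL 316243 acts selectively on the β3-adrenergic receptor, which in rodents sits mainly on fat cells. The receptor raises cAMP and activates protein kinase A, which releases fatty acids from stored triglyceride and switches on genes of heat production and fatty acid burning. White fat under lasting stimulation of this kind is known to gain cells with brown fat features, to draw in macrophages, and to show division of resident precursor cells.

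The deposited values are linear intensities. A floor of 173 intensity units, the 40th percentile of all 4 arrays, was set under them, and a change is the log2 ratio of day 3 over control after the floor. Where the dimmer value lay at the floor, the fold is a lower bound and is written as at least that fold. With 1 array per group there was no test and no p-value, and "rose" and "fell" mean only that a value was at least 2-fold from control. Of 12422 probe sets, 313 (2.52%) rose and 265 (2.13%) fell, and 4522 did not exceed the floor on either array. The named probe sets cover 8251 genes, and 5978 of these exceeded the floor on at least 1 of the 2 arrays. Of those, 238 genes (3.98%) rose and 204 (3.41%) fell, and these shares are the background for every count below. The median change of the 5978 genes was -0.01, with 48.6% of them above 0.

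The measurement error was read only from genes with 2 probe sets that both reached at least 2 times the floor on both arrays. Over 571 such genes the change of day 3 had an error of 0.28 on the log2 scale, so that 2 errors came to 1.47-fold, and 1.93% of the pairs lay 2-fold or more apart. Of 43 such genes in which a probe set passed 2-fold, both moved in the same direction in 38 and both passed 2-fold the same way in 18. This error holds no difference between mice or pools, and it does not cover genes with a dimmer value on either array. Most changes were not far beyond the threshold. Of the genes that rose, 154 lay between 2-fold and 3-fold and 43 reached 4-fold, and of those that fell, 156 and 19 did. The dimmer value was at the floor for 59 rises and 32 falls.

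**Figure D1:**
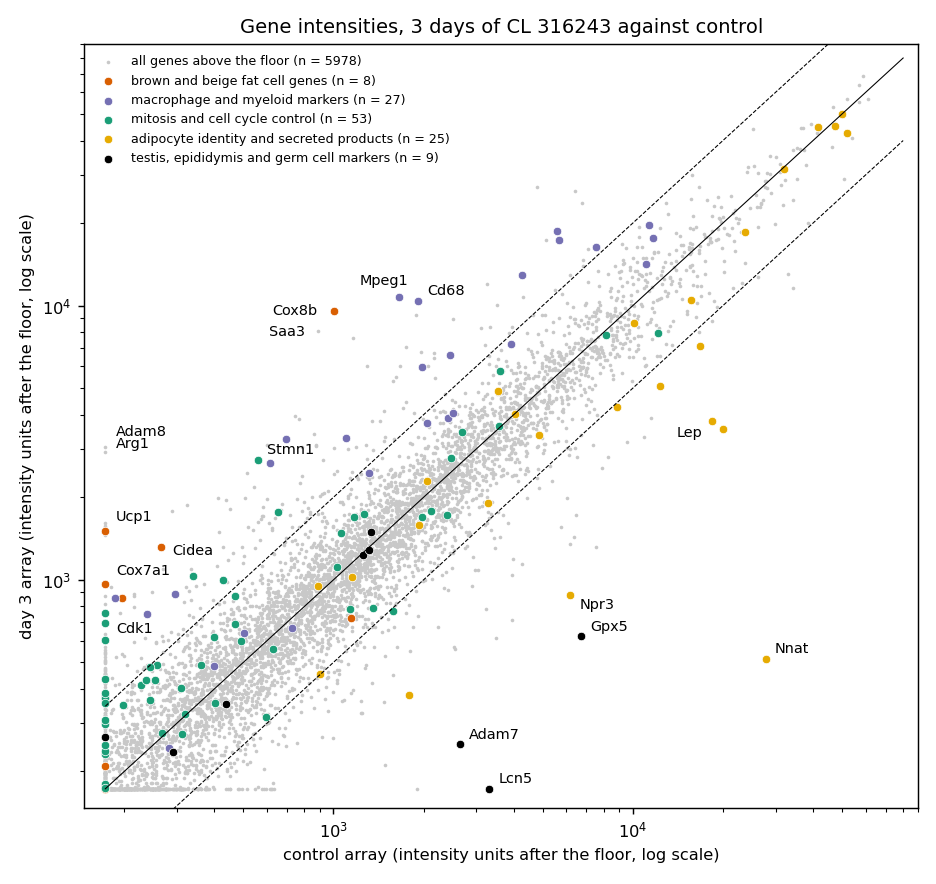
Intensity of each of 5978 genes on the control array (horizontal, log scale) and on the day 3 array (vertical, log scale), after the floor of 173. The solid line marks equal values and the dashed lines 2-fold; coloured points are members of 5 gene lists, with Cox8b, Cd68 and Mpeg1 far above the diagonal and Nnat, Npr3, Gpx5, Adam7 and Lcn5 far below it.

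The tissue label held for the bulk of the fat cell genes. Adipoq, the hormone adiponectin, gave 52042 intensity units on the control array and 42596 at day 3, and Cebpa, a transcription factor of mature fat cells, 32043 and 31444. Of 27 measured genes of fat cell identity, 25 were above the floor, and the receptor gene Insr and the adaptor gene Irs1 were not. In RNA from whole tissue, fewer cells of a type and less RNA per cell cannot be told apart, and this holds for every gene group described here.

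Of 14 measured genes that mark brown and beige fat, 5 rose and 0 fell. The median log2 change was 2.21 over the 8 above the floor, of which Ucp1, Cox7a1 and Elovl3 were above it at day 3 and not in control, and 0.00 over all 14 with the other 6 counted as 0. Cox8b, a subunit of cytochrome oxidase used in brown fat and striated muscle, read 1002 in control, 815 at day 1, 9551 at day 3 and 15473 at day 6. It was 9.54-fold higher at day 3, and its dimmer probe set was 5.97-fold higher. Cox8b was not above its control level after 1 day, and its values at days 3 and 6 were the high ones. Cox7a1, the muscle and brown fat form of another oxidase subunit, went 56, 318, 966 and 954 over the same arrays, at least 5.59-fold up at day 3. Cidea, which coats lipid droplets in brown fat cells, went 266, 178, 1312 and 947, and was 4.93-fold higher at day 3.

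Ucp1 and Dio2, which make heat and supply the hormone that drives it, had another order. Ucp1, the uncoupling protein that lets brown fat mitochondria turn fuel into heat, read -14, 3056, 1501 and 1190 from control to day 6. It was at least 8.68-fold up at day 3, with its highest value at day 1, and its second probe set, which may share sequence with other transcripts, went from 41 to 348. Dio2, the deiodinase that activates thyroid hormone inside the cell, went 197, 723, 859 and 433 and was 4.36-fold higher at day 3. The cAMP response element, TGACGTCA, and its core TGACG bind factors that protein kinase A activates, so the 200 bases just before the start of both genes are shown with those letters in capitals (RefSeq, GRCm38.p6, 5′ to 3′ on the gene's strand).
Ucp1, chr8:83290148-83290347, plus strand: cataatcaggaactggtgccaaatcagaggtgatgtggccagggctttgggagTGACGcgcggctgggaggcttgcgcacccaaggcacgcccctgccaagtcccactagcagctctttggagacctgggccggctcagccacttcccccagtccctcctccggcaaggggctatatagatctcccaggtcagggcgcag
Dio2, chr12:90739039-90739238, minus strand: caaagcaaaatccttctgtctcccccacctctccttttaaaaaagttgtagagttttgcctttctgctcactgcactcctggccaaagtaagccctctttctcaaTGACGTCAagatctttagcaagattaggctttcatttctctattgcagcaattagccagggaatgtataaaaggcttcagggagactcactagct

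The Ucp1 window held the core 147 to 143 bases before the start, and the Dio2 window held the whole element 95 to 88 bases before it. Of the 5 brown fat genes that rose, 4 had a promoter entry, of which 2 held TGACG and 1 TGACGTCA on either strand. Over 27025 genes with an entry, 17.5% held TGACG and 1.69% the whole element, which contains the core. The brown fat counts rest on 4 promoters. Among members of the mitosis and replication lists below that did not rise, 29% of 31 and 46.2% of 26 held TGACG. A match is a run of letters and not evidence of binding.

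The other brown fat genes above the floor did not reach 2-fold. Elovl3, an elongase of brown fat, went from 50 to 209, Ckmt1, a mitochondrial creatine kinase, from 173 to 110, and Ebf2, a transcription factor of brown fat precursors, from 1146 to 726. Ppargc1a, a coactivator of mitochondrial genes, read 100 in control and 48 at day 3 and could not be followed, and Fabp3, Mpzl2, Kcnk3, Zic1 and Slc27a2 likewise stayed under the floor. With the floor at the 60th percentile 3 genes rose (Cox8b, Ucp1 and Cidea), since Cox7a1 and Dio2 are dim, and the median was 1.07.

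Genes of fatty acid burning were higher. Of 24 genes of the carnitine shuttle and β-oxidation above the floor, all 24 were above control and 6 rose, with a median of 0.74. Acadvl, the dehydrogenase for very long chains, gave no value above the floor. Both genes of the inner membrane step rose. Slc25a20, which carries acylcarnitines across that membrane, read 3105 in control, 5655 at day 1, 8264 at day 3 and 7841 at day 6, and was 2.66-fold higher at day 3. Cpt2, which frees the fatty acid on the far side, read 6157, 6382, 12922 and 14413, a 2.1-fold rise that was not present at day 1. Cpt1a, the outer membrane gate, was chosen after its value was seen and read 3334, 8319, 4416 and 2993, so it was highest at day 1 and 0.41 log2 above control at day 3.

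Inside the mitochondrion, Acadl, the long-chain acyl-CoA dehydrogenase, read 2164, 3811, 6729 and 6739 and rose 3.11-fold. Etfdh, which hands the electrons of these dehydrogenases to ubiquinone, read 1857, 1736, 4064 and 3937 and rose 2.19-fold. Both had like values at days 3 and 6. Acaa1b, a peroxisomal thiolase, read 4800, 17849, 27041 and 16182, a 5.63-fold rise, and its other probe set rose 7.25-fold. The near-identical Acaa1a read 7039 and 7404, with a change of 0.07, and transcripts of either copy may reach the probes of the other. Acot1, a thioesterase that splits acyl-CoA, was highest at day 1, at 1020, and at 407 at day 3 was at least 2.35-fold above control.

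**Figure D2:**
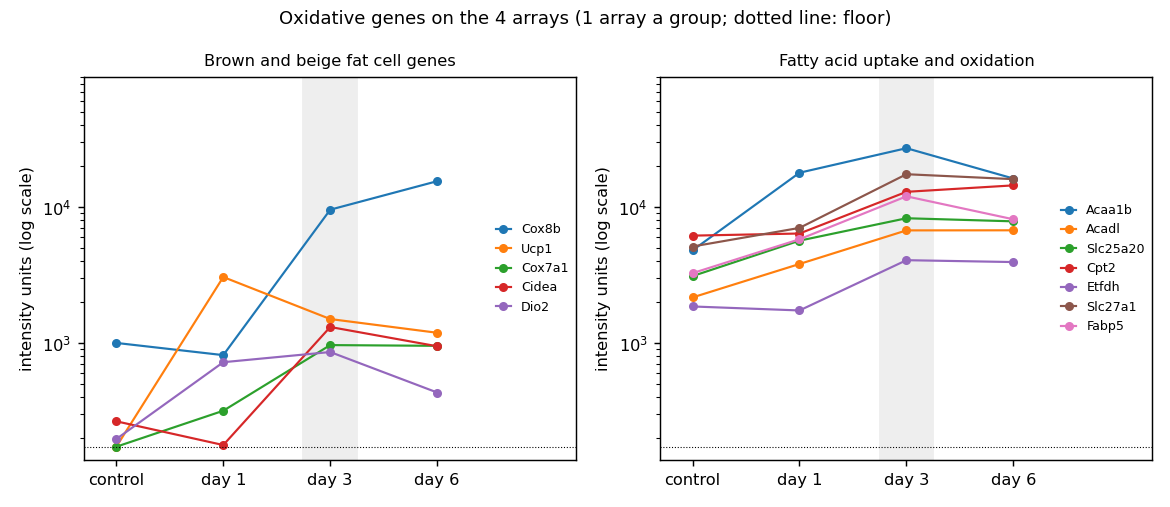
Intensity (log scale) of 5 brown fat genes and 7 genes of fatty acid uptake and oxidation on the control, day 1, day 3 and day 6 arrays, 1 array per point, with day 3 shaded and the floor dotted. From day 1 to day 3 Cox8b, Cidea and Cox7a1 went up and Ucp1 down, and Acadl, Slc25a20, Cpt2, Etfdh and Slc27a1 had like values at days 3 and 6.

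Genes of complexes I to III and of ATP synthase shifted little, and nearly all were above control. Of 36 genes of complexes I to III above the floor, 33 were above control and 0 passed 2-fold, with a median of 0.34 and a range from -0.13 to 0.69. The highest were Sdhd, an anchor subunit of succinate dehydrogenase, which read 8694 and 13993, and Uqcr10 of complex III, at 10746 and 16405; both were picked after their values were seen. All 12 ATP synthase genes above the floor were above control, with a median of 0.34 and Atp5d, also picked so, the highest at 0.93. Cytochrome oxidase was split, with 7 of 12 genes above control and 5 below, and a median of 0.26. Of these 12, Cox8b and Cox7a1 alone rose. No other subunit of the chain or of ATP synthase reached 2-fold.

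The citric acid cycle and pyruvate dehydrogenase genes had a median of 0.32 over 26, with 20 above control and 2 that rose. Pdk4, the kinase that turns pyruvate dehydrogenase off, read 1006 in control and 3250, 3021 and 3491 on the treated days, so it was already 3-fold up by day 1. Dlat, a core subunit of that same enzyme, read 1487 and 3310, and was 1.36-fold higher by its dimmer probe set. Among 27 mitochondrial carriers and import proteins, 3 rose and the median was 0.25. Slc25a10, the dicarboxylate carrier, read 7103, 2656, 16140 and 16002, below control at day 1 and 2.27-fold above it at day 3. Timm9, an import chaperone, read 270 and 598. Chchd10, a protein of the mitochondrial intermembrane space, read 6394, 26766, 26211 and 18790 and was 4.1-fold higher at day 3; it is on none of the lists and was chosen after its value was seen. Ppif, the cyclophilin of the mitochondrial permeability pore, read 180, 1475, 945 and 500, a 5.25-fold rise.

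Ketone body and branched-chain amino acid breakdown had a median of 0.10 over 15 genes and 0 past 2-fold, and 19 peroxisomal genes had a median of 0.26 with Acaa1b the only rise.

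Fat storage and release were near control. Of 15 lipases and lipid droplet proteins above the floor, 2 rose, Cidea and Lipa, and the median was 0.03. Pnpla2, the adipose triglyceride lipase, read 36510 and 44394, and Lipe, hormone-sensitive lipase, 15659 and 15707. Plin2, a droplet coat protein, Abhd5, the coactivator of Pnpla2, and G0s2, its inhibitor, had changes of 0.72, 0.69 and -0.68; they were named after their values were seen and did not reach 2-fold. Glycerol supply and triglyceride synthesis had 0 of 11 past 2-fold and a median of 0.29, in which Dgat1, an enzyme of the last step, read 7675 and 13366 and Gpd1, which makes glycerol phosphate, 15678 and 24559, both also outside the naming rule.

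Fatty acid uptake split by gene. Slc27a1, a fatty acid transport protein, read 5123 in control, 7018 at day 1, 17408 at day 3 and 16014 at day 6, and rose 3.4-fold. Fabp5, a binding protein of macrophages and fat cells, read 3263, 5790, 11976 and 8117 and rose 3.67-fold. The other 8 genes of the group above the floor stayed within 2-fold, and the group's median was -0.16. Retsat, the retinol saturase of fat cells, was picked after its value was seen and read 1956, 981, 6772 and 4797, a rise of 3.46-fold after a lower value at day 1. Reep6, an endoplasmic reticulum protein picked in the same way, followed that course at 2192, 525, 5460 and 6018.

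Fatty acid synthesis was near control at day 3. Fasn, the fatty acid synthase, read 31660 in control, 4958 at day 1, 23355 at day 3 and 32155 at day 6. Thrsp, a lipogenic regulator, read 34364, 2214, 36861 and 40011, and Acly, which supplies acetyl-CoA, 13515, 5440, 12347 and 7441, both named after their values were seen. Among 15 genes 1 passed 2-fold, Elovl6, an elongase, at 1517 and 721, and the median was -0.11. Glycolysis and glucose transport had a median of 0.15 over 20 genes with 2 falls. Pygb, a glycogen phosphorylase, went from 4415 to 1984. Slc16a1, a lactate and ketone body carrier, was above control at day 1 and below it at day 3, at 374, 1068, 175 and 260. The insulin-responsive transporter Slc2a4 read 4054 and 4015.

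Fat cell products and receptors were lower, while the transcription factors Cebpa and Pparg stayed within 2-fold of control, at -0.03 and -0.53. Of 25 genes above the floor, 8 fell, 0 rose and 20 were below control, with a median of -0.35. Nnat, neuronatin, an imprinted membrane protein of fat cells, had the steepest fall of all genes, from 27857 in control to 823 at day 1 and 516 at day 3, with 2542 at day 6; this is 54-fold at day 3. Mest, another imprinted gene, linked to the expansion of fat mass, read 1784, 308, 381 and 677, a 4.68-fold fall. Lep, leptin, read 18447, 1607, 3806 and 4839, 4.85-fold lower at day 3 by its brighter probe set and 16.6-fold by the other. Lep was higher at day 3 than at day 1, and Nnat was not.

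Sncg, γ-synuclein, a protein of nerve and fat cells, read 20032, 5411, 3560 and 12066, a 5.63-fold fall. Npr3, the receptor that clears natriuretic peptides and so limits their lipolytic signal, read 6179, 670, 880 and 1432, a 7.02-fold fall, with its other 2 probe sets 8.32-fold and 6.73-fold lower. Agt, angiotensinogen, fell 2.44-fold, Aoc3, a surface amine oxidase, 2.36-fold, and Itih5, an inter-α-trypsin inhibitor chain, 2.08-fold. These 3 had higher values at day 6 than at day 3. Pparg, the master regulator of fat cells, read 4874, 1303, 3375 and 4521, and Retn, resistin, 47394 and 45047 in control and at day 3. Tshr, the thyrotropin receptor, chosen after its value was seen, read 2906, 268, 950 and 1128, and fell 3.06-fold.

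The list for the pathway through which the drug signals had more falls than rises. Of 20 genes of the β-adrenergic receptor, protein kinase A and phosphodiesterase list, 1 rose and 3 fell, where 3.98% and 3.41% of all genes did, and the median was -0.19. Rgs2, which damps G protein signals, read 493, 631, 1318 and 1615. Npr3, the natriuretic peptide receptor described above, was 1 of the 3 falls. Akap12, a scaffold of the kinase, went from 1448 to 645, and Pkia, an inhibitor of the kinase, from 373 to below the floor. The catalytic subunit Prkaca, chosen after its value was seen, read 2321 and 4144, a change of 0.84. Adrb3, the receptor that CL 316243 binds, was not analysed here, nor were Gk and Gapdh.

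Immediate early genes were mixed, with 4 rises and 3 falls among 29 and a median of -0.06. Fos read 450, 2262, 1807 and 384, 4.01-fold up, and Junb 302, 4454, 632 and 110. Jun, their partner, was above control at day 1 and below it at day 3, at 466, 1140, 215 and 360. Atf3 and Gadd45b, stress-response genes, rose 2.08-fold and at least 2.06-fold, while Klf2 fell at least 2.98-fold and Gadd45g fell 2.6-fold. Junb and Gadd45b were within 2-fold when all their probe sets were averaged, at 0.68 and 0.81. The brightest probe sets of Junb, Atf3 and Gadd45b are not marked as unique to 1 transcript, and with unique probe sets alone the list had 1 rise and 3 falls among 25.

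Macrophage markers were higher. Of 27 myeloid markers above the floor, 25 were above control, 15 rose and 0 fell, with a median of 1.13, and their summed intensity went from 82438 to 185892. Mpeg1, a macrophage perforin, read 1661, 14129, 10721 and 4219 and was 6.46-fold higher at day 3. Cd68, a lysosomal membrane protein of macrophages, read 1913, 8718, 10439 and 2867, a 5.46-fold rise. Adgre1, which encodes F4/80, read 692, 1321, 3254 and 1013, a 4.7-fold rise with its highest value at day 3. Itgam, the integrin CD11b of newly arrived monocytes and neutrophils, read 186, 2629, 856 and 235, a 4.6-fold rise with its highest value at day 1. Fcgr1, a high-affinity antibody receptor, rose 4.35-fold, and Aif1, an actin-binding protein of macrophages, 3.14-fold, from 239 to 751.

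The other rises among the markers ran from Lgals3, a galectin, at 3.35-fold, through Ctss at 3.06-fold, Tyrobp at 3.04-fold, Laptm5 at 3.02-fold and Cybb, the phagocyte oxidase, at 3-fold, to C1qb at 2.17-fold. C1qb and Msr1, a scavenger receptor, were within 2-fold when probe sets were averaged, at 0.39 and 0.71. Csf1r, the macrophage growth factor receptor, read 3922 and 7235, and Mrc1, the mannose receptor, 2048 and 3734, both within 2-fold. Cx3cr1 and Fcgr3 were below control, at -0.12 and -0.21, and Fcer1g, Siglec1 and Marco did not exceed the floor. These 4 with values, and those at the floor, were named to account for the list.

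Lysosomal genes followed. Of 53 above the floor, 42 were above control, 8 rose and 0 fell, with a median of 0.54. Lipa, the acid lipase that breaks down cholesterol esters and triglyceride in lysosomes, read 288, 1317, 1783 and 760, a 6.19-fold rise. Lgmn, an asparaginyl protease, read 1889, 7529, 9220 and 3342, a 4.88-fold rise. Slc11a1, a metal transporter of the phagosome, rose 3.86-fold, Atp6v1b2, a proton pump subunit, 2.23-fold (within 2-fold, at 0.96, with its probe sets averaged) and Ctsa, a carboxypeptidase, 2.02-fold. Lipa, Lgmn and Cd68 had their highest values at day 3. The part of the higher myeloid marker level in these lysosomal values was not tested, and the same applies to the immune groups that follow.

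Among 32 genes of phagocytosis and scavenging, 10 rose and 1 fell, with a median of 0.70. Lcp1, the leukocyte actin bundler, rose 4.07-fold, Abcg1, which exports cholesterol, 2.97-fold, Stab1, a scavenger receptor, 2.8-fold and Cyba, an oxidase subunit, 2.5-fold. Itgb5, an integrin chain, was the fall, at -1.24, and was within 2-fold when its probe sets were averaged. Apoc2 and Apoc4, neighbouring apolipoprotein genes of which the first encodes the cofactor of lipoprotein lipase, read 411, 1864, 1993 and 1259 and 23, 86, 871 and 611; they rose 4.85-fold and at least 5.04-fold. Pla2g7, a secreted phospholipase of macrophages, rose 3.06-fold, and Hmox1, heme oxygenase, 3.56-fold, from 2513 to 8956 with 16629 at day 1.

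Of 20 complement and Fc receptor genes, 8 rose and 1 fell, with a median of 0.49, or 0.12 over all 25 measured. The anaphylatoxin receptors C3ar1 and C5ar1 rose 4.77-fold and 2.83-fold, the inhibitory antibody receptor Fcgr2b 3.56-fold, the integrin chain Itgb2 2.61-fold and properdin, Cfp, 2.48-fold. Complement factor C2 went the other way, from 5747 to 1562. Further leukocyte receptors rose outside the lists. Lilr4b read 744, 8369, 3963 and 1610, and Cd300c2 598, 2502, 3104 and 1102. Ifi30, a thiol reductase of antigen processing, rose 5.03-fold, yet antigen presentation as a whole had a median of -0.06 over 21 genes with Ifi30 and Ctss its 2 rises.

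Chemokines were higher. Of 19 genes above the floor, 9 rose and 1 fell, with a median of 0.90. Another 16 did not exceed the floor, and with them counted as 0 the median was 0.00. Ccl8, an attractant of monocytes, read 1293, 4279, 6021 and 4946, a 4.66-fold rise that held at day 6. Ccl9, Ccl6 and Ccl2, which also draw monocytes, rose 3.49-fold, 2.98-fold and 3.05-fold. Ccl2 read 11807 at day 1 and 2398 at day 3. Ccr1, a receptor of this family, rose 4.12-fold. Cxcl12, outside the naming rule, was 1 of the 9 rises, from 1281 to 3108. Its other probe sets were only 1.29-fold and 1.1-fold higher, and with probe sets averaged 8 genes of the list rose. Ackr3, a decoy receptor for Cxcl12, was the fall, from 1579 to 451. Interferon-response genes did not share the direction, with 0 rises, 3 falls and 22 of 25 below control, and a median of -0.41. Isg20, an RNA exonuclease, fell 2.97-fold, Iigp1, an immunity GTPase, 2.89-fold, and Rsad2, an antiviral enzyme, at least 2.16-fold.

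The list of acute phase proteins, cytokines and inflammation counted 8 rises and 0 falls among 32, with a median of 0.17, and 14 members were not above the floor. S100a8, a calcium-binding protein abundant in neutrophils, read 414 in control, 40305 at day 1, 1494 at day 3 and 643 at day 6, and was 3.61-fold higher at day 3. Its partner S100a9 read 119, 26727, 540 and 13, at least 3.12-fold higher at day 3. Both far exceeded these values at day 1. The cytokine Il1b read 36, 13108, 121 and 8, which put it below the floor at day 3. Saa3, an acute phase protein of inflamed fat, read 889, 19119, 8098 and 2016, 9.1-fold up at day 3, and Il1rn, the antagonist of interleukin-1, 113, 9539, 1608 and 119. Orm2, an acute phase carrier protein, rose 4.04-fold and had its highest value at day 3, at 1092. Of 23 measured neutrophil and mast cell markers, 13 were not above the floor. Among the other 10, S100a8 and S100a9 were the 2 rises and Prtn3 and Mmp9 the 2 falls, with a median of 0.32. Prtn3 read 756, 164, 255 and 153, a 2.97-fold fall, and Mmp9 fell at least 2.04-fold.

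Of 9 genes of the alternatively activated macrophage state, 3 rose and 1 fell, with a median of 0.76. Of the 9, 5 were above control and 4 below. The rises were Arg1, Chil3 and Tgfb1, and the fall was Alox15, from 378 to 101, at least 2.19-fold. Of 21 matrix proteases and inhibitors above the floor, 4 rose and 1 fell, and 13 were below control, with a median of -0.30. Arg1, Chil3, Adam8 and Timp1 were among the 25 largest rises of all genes. Arg1, an arginase, read 128, 14410, 2924 and 78, at least 16.9-fold up at day 3, and Chil3, a chitinase-like protein, 121, 6505, 1570 and 49, at least 9.07-fold. Adam8, a leukocyte metalloprotease, read 101, 3932, 3045 and 464, at least 17.6-fold. Timp1, an inhibitor of such proteases, read 1160, 18815, 7591 and 1597, 6.55-fold. These 4 had their highest values at day 1, and Arg1 and Chil3 were below the floor at day 6. Postn, periostin, a matrix protein of tissue repair, had its highest value at day 3, at 1670, 3535, 6035 and 3804, and Adam12, a metalloprotease, rose at least 2.43-fold. Mmp9, a gelatinase of neutrophils, went from 353 to 155, after 4438 at day 1. Dendritic cell markers had 0 of 11 past 2-fold. T and NK cell markers had 19 of 25 at or below the floor, the T cell receptor chains Cd3d, Cd3e and Cd3g among them, with Il7r the only rise. Among 12 B cell markers Blnk, an adaptor of B cells and macrophages, rose 2.96-fold and Ighm, the antibody μ chain, fell 2.09-fold. The fall of Ighm was within 2-fold when its probe sets were averaged, and with unique probe sets alone, at -0.94.

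**Figure D3:**
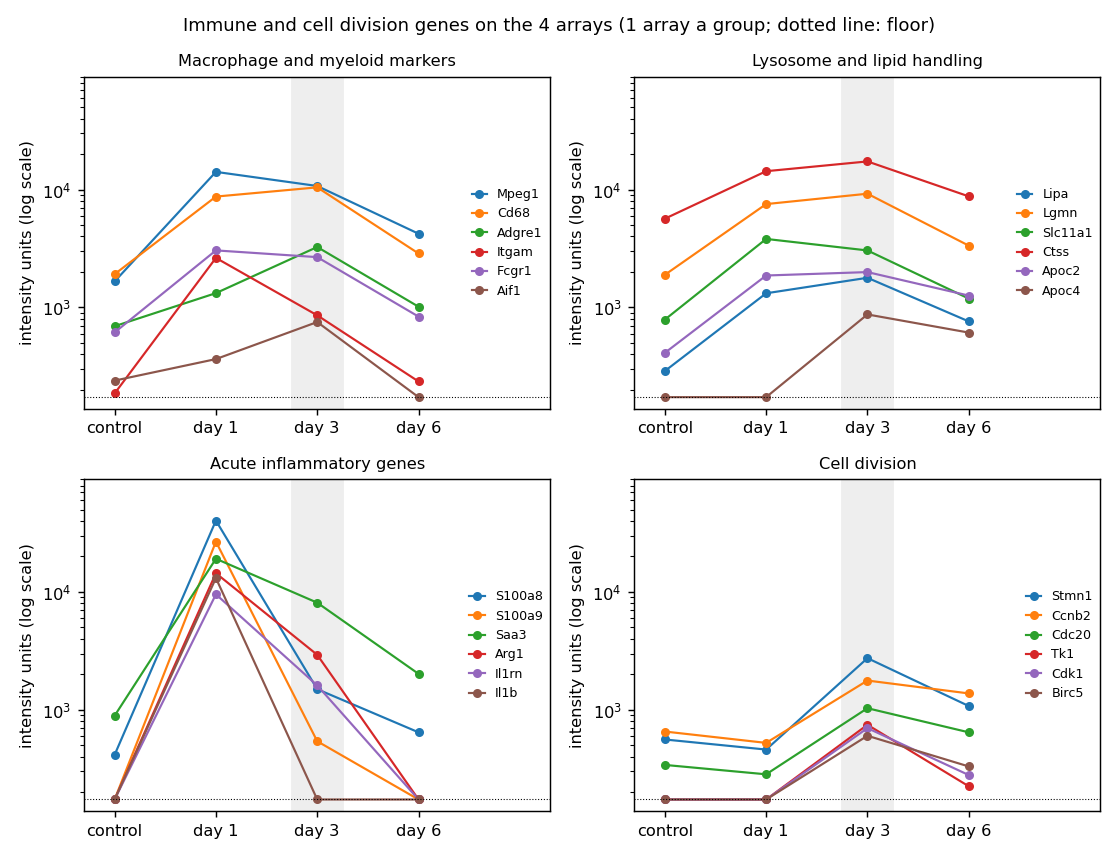
Intensity (log scale) of macrophage, lysosomal, acute inflammatory and cell division genes on the control, day 1, day 3 and day 6 arrays, 1 array per point, with day 3 shaded and the floor dotted. The acute genes had their highest values at day 1, Cd68, Adgre1, Lipa and Lgmn at day 3, and the 6 division genes had their highest value at day 3.

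Cell division genes were higher at day 3. Of 53 genes of mitosis and cell cycle control above the floor, 41 were above control, 11 rose and 1 fell, with a median of 0.49, or 0.28 over all 67 measured. Stmn1, a microtubule regulator of dividing cells, read 559, 459, 2739 and 1075, a 4.9-fold rise. Cdk1, the kinase that starts mitosis, read 4, 68, 698 and 279, at least 4.04-fold. Ccnb2, a cyclin that activates Cdk1, read 653, 523, 1769 and 1375, a 2.71-fold rise, and Cks2, a small partner of the kinase, 139, 709, 754 and 588. At day 1 Stmn1 and Ccnb2 were below their control values and Cdk1 was below the floor, as in control. Birc5, survivin, which guides chromosome separation, rose at least 3.47-fold, Cdc20, the activator of the anaphase complex, 3.03-fold, Prc1, a spindle midzone protein, at least 2.52-fold and the kinesin Kif22 2.33-fold. The kinesins Kif2c and Kif20a and the spindle protein Nusap1, outside the naming rule, completed the 11. Their control values lay under the floor, and their changes were at least 1.16, 1.10 and 1.04 on the log2 scale. Kif20a was not above the floor with unique probe sets alone.

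Plk1, a mitotic kinase, was below control at 594 and 315, a change of -0.92, by its brightest probe set, but its other 2 went the opposite way, from 268 to 402 and from 32 to 279. Cdkn1c, an inhibitor of the cycle, was the fall, at 1579 and 767. Both were named after their values were seen. Mki67, the proliferation antigen Ki-67, read 267 and 276 by its brighter probe set and 63 and 547 by the other, so that the 2 probe sets did not give the same answer.

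Replication genes moved likewise. Of 37 above the floor, 26 were above control, 8 rose and 1 fell, with a median of 0.43, or 0.00 over all 51 measured. Tk1, thymidine kinase, read 76, 133, 745 and 224, at least 4.31-fold up, and 1.48-fold by its other probe set. Rrm1 and Rrm2, the subunits of ribonucleotide reductase, rose at least 2.89-fold and at least 2.62-fold, Cdt1, which licenses origins, 2.74-fold, Uhrf1, which copies DNA methylation, at least 2.69-fold and Mcm5 of the replicative helicase 2.23-fold. The probe set named Tyms-ps, for a pseudogene of thymidylate synthase, read 861, 243, 3411 and 4940, and transcripts of the parent gene may reach it. Another Tyms-ps probe set read -8, -24, -34 and -142, under the floor on every array. Most of these genes were dim. With the floor at the 60th percentile 2 mitosis genes and 1 replication gene rose, and with it at the 25th, 20 and 12 did.

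Late cell cycle genes are known to be switched together through a CCAAT box and a cell cycle homology region, here searched as TTTGAA. The 200 bases before the start of 4 of the rising genes that hold both are shown, with matches on either strand in capitals (RefSeq, GRCm38.p6, 5′ to 3′ on the gene's strand, ATTGG and TTCAAA being the reverse complements).
Cdk1, chr10:69352913-69353112, minus strand: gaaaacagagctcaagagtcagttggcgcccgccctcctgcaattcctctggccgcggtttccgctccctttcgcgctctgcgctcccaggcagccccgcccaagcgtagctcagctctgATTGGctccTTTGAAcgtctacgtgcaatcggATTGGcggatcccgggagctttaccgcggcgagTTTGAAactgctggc
Ccnb2, chr9:70421555-70421754, minus strand: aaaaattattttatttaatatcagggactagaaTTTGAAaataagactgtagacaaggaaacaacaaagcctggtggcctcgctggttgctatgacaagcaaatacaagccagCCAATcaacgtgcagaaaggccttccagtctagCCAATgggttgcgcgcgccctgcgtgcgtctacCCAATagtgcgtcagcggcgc
Cdc20, chr4:118437344-118437543, minus strand: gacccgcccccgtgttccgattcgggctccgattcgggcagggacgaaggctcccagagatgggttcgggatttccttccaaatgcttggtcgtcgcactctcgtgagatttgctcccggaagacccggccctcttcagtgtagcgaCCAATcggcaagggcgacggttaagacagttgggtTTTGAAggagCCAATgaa
Kif22, chr7:127042421-127042620, minus strand: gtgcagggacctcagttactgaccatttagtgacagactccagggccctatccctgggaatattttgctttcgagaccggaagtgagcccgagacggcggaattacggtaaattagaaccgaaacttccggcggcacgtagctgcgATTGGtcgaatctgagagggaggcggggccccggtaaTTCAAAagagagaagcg

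In Cdk1, Cdc20 and Kif22 a TTTGAA match lay within 18 bases of the start, and in Ccnb2 it lay 167 to 162 bases before it. Of the 11 mitosis genes that rose, 9 had a promoter entry, and 6 of these (66.7%) held CCAAT and 6 TTTGAA. Of the other 42 members above the floor, 31 had an entry, with CCAAT in 61.3% and TTTGAA in 32.3%. Over 27025 genes the shares were 32.7% and 14.4%. CCAAT was thus about as common in list members that did not rise, and the share with TTTGAA rests on 9 promoters.

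**Figure D4:**
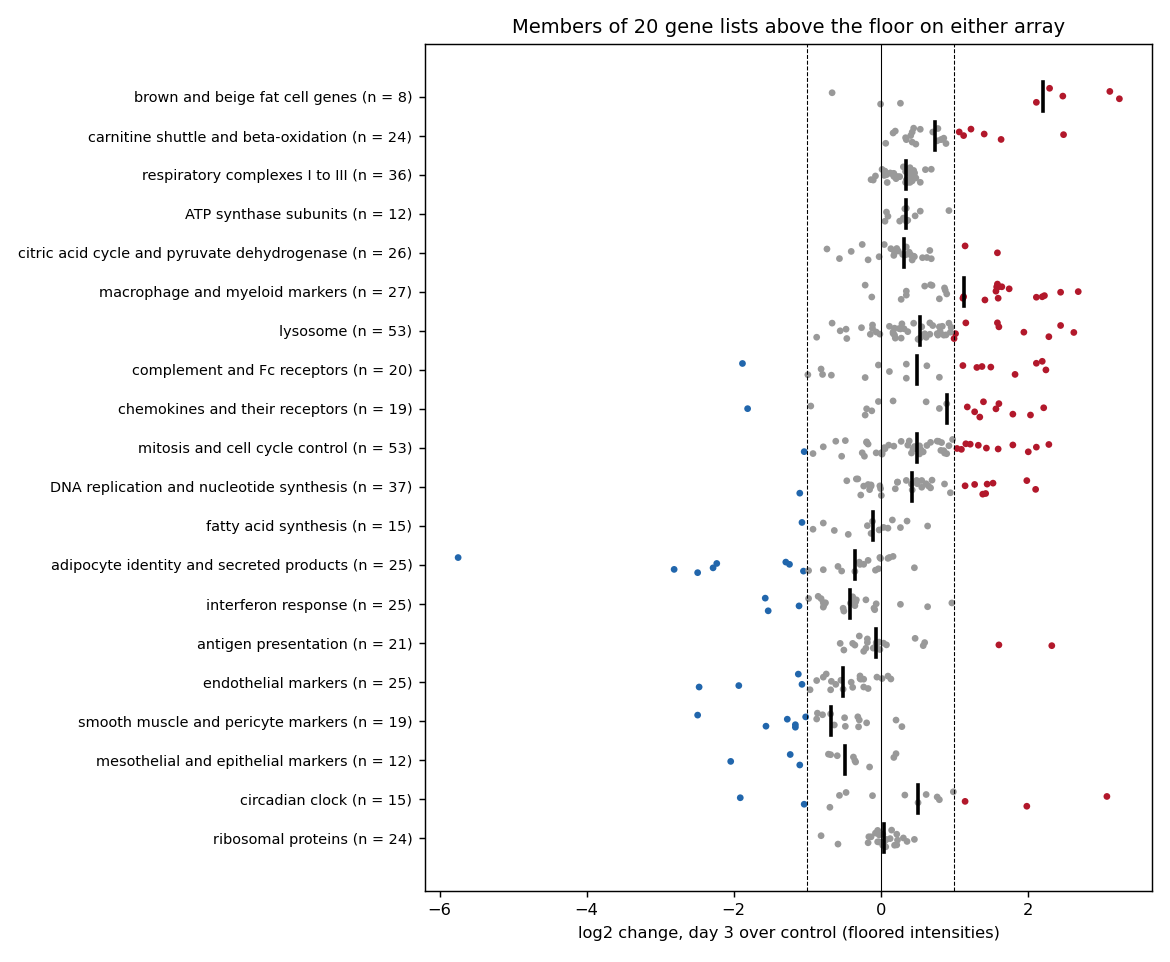
Log2 change of day 3 over control for each member above the floor of 20 gene lists, with the list median as a bar; red points rose and blue points fell at least 2-fold (dashed lines). Brown fat genes (median 2.21) and myeloid markers (1.13) lie to the right, respiratory genes form a tight cluster at 0.34, and endothelial (-0.51) and smooth muscle (-0.68) genes lie to the left.

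Vessel and wall genes were lower. Of 25 endothelial markers above the floor, 22 were below control, 4 fell and 0 rose, with a median of -0.51 and a summed intensity of 54804 in control and 38320 at day 3. Thbd, thrombomodulin, an anticoagulant receptor, read 3951, 3409, 714 and 783, a 5.53-fold fall that came after day 1. Cldn5, a tight junction protein, read 3955, 977, 1037 and 2325, a 3.81-fold fall. Lyve1, a lymphatic receptor, fell 2.17-fold and Tek, an angiopoietin receptor, 2.1-fold. The general markers Pecam1, Cdh5 and Kdr, named after their values were seen, were -0.54, -0.74 and -0.78, each within 2-fold.

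Of 19 smooth muscle and pericyte markers, 17 were below control and 6 fell, with a median of -0.68 and sums of 64384 and 28374, of which Sncg, a fat cell gene too, gave 20032 and 3560. Mcam, an adhesion molecule of vessel walls, read 8250, 3204, 2797 and 3701, and fell 2.95-fold. The contractile genes Actg2, Acta2, Myh11 and Myl9 fell 2.41-fold, 2.23-fold, 2.23-fold and 2.03-fold. Mesothelial and epithelial markers, which cover the surface of the depot, had 3 falls and 0 rises among 12 and a median of -0.48. The keratin Krt19 fell 4.11-fold, Upk3b 2.34-fold and mesothelin, Msln, 2.14-fold, while Wt1, named after its value was seen, was at 0.18. Acta1, the actin of skeletal muscle, read 1492, 2379, 212 and 168, and was the only fall among 13 muscle markers. Fibroblast and precursor markers had a median of -0.15 over 21, with S100a4, which leukocytes also make, the only rise at 2.55-fold.

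Matrix genes were mostly level, with 1 rise and 3 falls among 50, shares near those of all genes, and a median of -0.06. Fmod, a collagen-binding proteoglycan, fell 4.44-fold, Lamb2, a laminin chain, 2.98-fold and Ogn, osteoglycin, 2.15-fold. Growth factor signalling of the TGF-β, BMP, FGF and Wnt families had 1 rise and 5 falls among 40, and a median of -0.27. Fzd4, a Wnt receptor, read 11467, 2643, 3884 and 4981 and fell 2.95-fold, with its other 2 probe sets lower by more than 3-fold. Inhbb, an activin subunit of fat cells, fell at least 3.39-fold, Gdf10 2.52-fold and Fgf1 2.39-fold, and Tgfb1 was the rise, at 2.69-fold. In the insulin and IGF list 5 fell and 1 rose of 26, with a median of -0.21. Of the IGF-binding proteins, Igfbp6 fell 3.09-fold, Igfbp3 at least 3.16-fold and Igfbp2 2.55-fold. The insulin receptor substrate Irs2 fell at least 2.61-fold. Pik3cd, the leukocyte form of phosphoinositide 3-kinase, was the rise, from 12 to 507. Its other probe set read 150 in control and 89 at day 3, under the floor on both arrays.

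Several abundant detoxifying enzymes were lower. Gpx3, a secreted glutathione peroxidase, read 34252, 13821, 11629 and 16122, a 2.95-fold fall, and Gstt1, a glutathione transferase, 6456, 1358, 1718 and 3896. Gstm3 and Gstm1, near-identical transferases, fell 4.47-fold and 2.06-fold by their brighter probe sets, but each has another that was slightly above control, and the mean over probe sets was within 2-fold for both. Prdx3, the peroxiredoxin of mitochondria, rose 2.07-fold. The list had a median of 0.00 over 38 genes. Among 23 genes of prostaglandin, leukotriene and steroid metabolism 5 fell and 2 rose. Hsd11b1, which regenerates active glucocorticoid in fat, read 6175, 1439, 1348 and 3054, a 4.58-fold fall. Hpgd, which inactivates prostaglandins, fell 4.56-fold and Ptges, which makes prostaglandin E, 2.8-fold. Ephx2, an epoxide hydrolase, rose 2.86-fold to 10092 and read 12071 at day 6. Inmt, a methyltransferase, read 7557, 603, 1312 and 4336 and fell 5.76-fold.

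Genes of the epididymis, the organ beside this depot, also differed. Lcn5, a lipocalin of epididymal fluid, read 3321 in control, 63 at day 1, 7 at day 3 and 8029 at day 6, at least 19.2-fold lower at day 3. Gpx5, the epididymal glutathione peroxidase, read 6711, 179, 622 and 302, and Adam7, a metalloprotease of the same organ, 2654, 200, 251 and 1846. Of 24 testis, epididymis and germ cell markers measured, 15 did not exceed the floor, the protamines Prm1 and Prm2 among them, and the 9 others summed to 17344 in control and 5742 at day 3. The 3 falls were high on the control array, and Lcn5 and Adam7 were high again at day 6. The part of such tissue in the other falls from the control array was not tested.

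Clock genes differed between the arrays too. Of 15 above the floor, 3 rose and 2 fell, with a median of 0.51. Dbp, an output factor of the clock, read 161, 1107, 1462 and 1345, at least 8.45-fold higher at day 3. The repressors Nr1d2 and Nr1d1 rose 3.97-fold and 2.22-fold. Arntl, also called Bmal1, which those repressors hold down, read 999, 167, 265 and 264, a 3.77-fold fall, and Nfil3, a repressor opposed to Dbp, fell 2.06-fold. Dbp, Nr1d2, Nr1d1 and Arntl stood at similar values on all 3 treated arrays and apart on the control array. The hour of collection was not tested as a part of these or of other values.

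**Figure D5:**
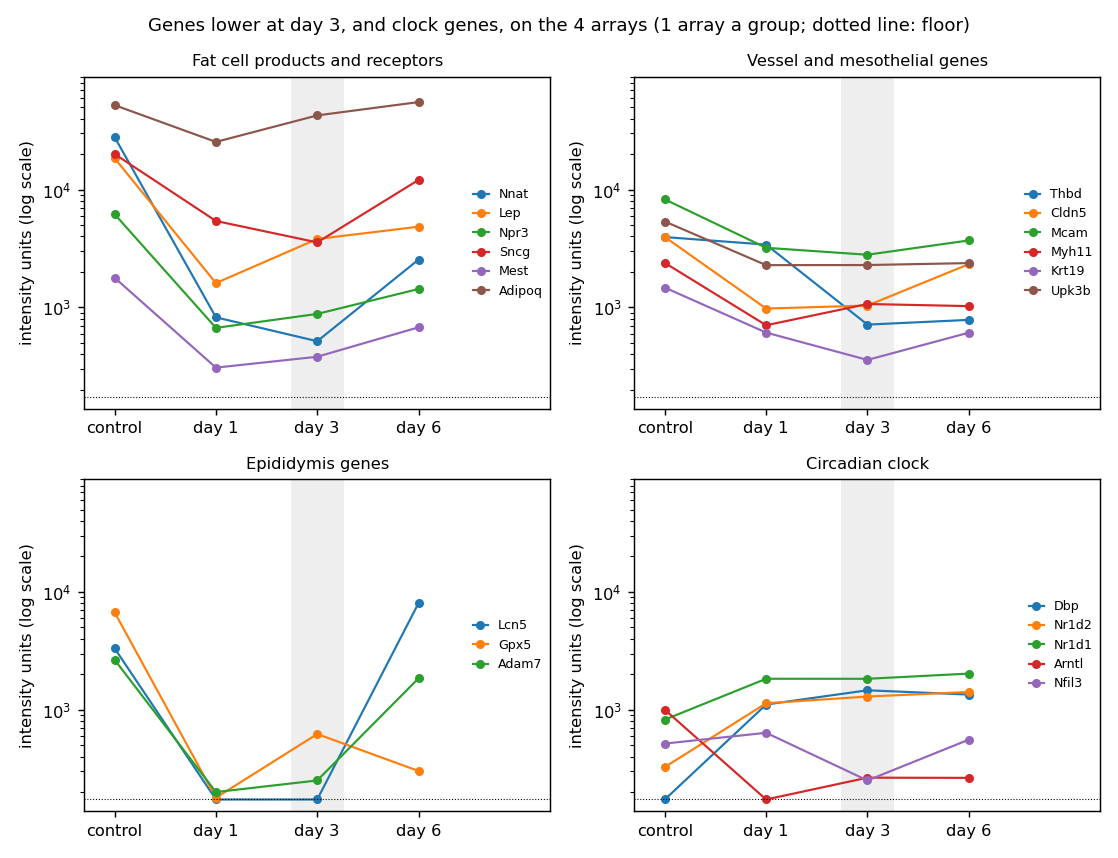
Intensity (log scale) of fat cell, vessel and mesothelial, epididymis and clock genes on the control, day 1, day 3 and day 6 arrays, 1 array per point, with day 3 shaded and the floor dotted. Nnat and Npr3 stayed low on all treated arrays, Lcn5 and Adam7 were high on the control and day 6 arrays, and the clock genes Dbp and Arntl set the control array apart from the treated ones.

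The housekeeping lists were level. Ribosomal proteins had 0 of 24 past 2-fold and a median of 0.04, and proteasome subunits 0 of 35 and 0.01. Actb, β-actin, read 5388 and 6904. The unfolded protein and stress response had 1 rise and 1 fall among 29, the chaperone Dnajb9 at 2.04-fold and the small heat shock protein Hspb8 at 2.05-fold down, and a median of -0.25. Hspb8 was within 2-fold when its probe sets were averaged, at -0.52. Cholesterol synthesis and transport had 2 rises and 1 fall among 23 and a median of 0.33, in which Cyp51, a sterol demethylase, rose 2.92-fold and Sc5d, a later desaturase, fell 3.3-fold.

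The 25 largest rises ran from 4.77-fold to 17.6-fold, and on the other treated arrays 19 of them were past 2-fold upward at day 1 and 15 at day 6. Of these 25 genes, 14 had their highest value at day 3, 10 at day 1 and 1, Cox8b, at day 6. The 25 largest falls ran from 3.73-fold to 54-fold, with 22 past 2-fold downward at day 1 and 18 at day 6, and Lcn5 past 2-fold upward at day 6. These contrasts share the control array, which was the highest of the 4 for 23 of the 25 falls.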

How the data were processed

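Per the labels, each of 4 Affymetrix mouse arrays holds pooled RNA of epididymal white fat, 1 array per group. The deposited table gives whole-number intensities on a linear scale, 12.4% of them at or below 0 on each of the 2 compared arrays. How the authors computed and normalized them is not stated in the labels. The median intensity was 314.5 on both arrays and 60.1% and 60.2% of probe sets were above the floor, so every change is relative to a common distribution. Sequencing depth does not apply, and the number of arrays limits the precision.

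Arrays were scaled to a common trimmed mean (2nd to 98th percentile, factors 0.999 to 1.001), floored at 173, the 40th percentile over all 4, and log2-transformed. The threshold was 2-fold. No test was run with 1 array per group. Gene symbols are those of the platform annotation: 10833 probe sets had 1 symbol, 396 several and 1193 were not listed, and only the first were named. The brightest probe set by the mean of 4 arrays stands for a gene. The 40 pathway and 13 marker lists, their members and the naming rule were chosen with earlier results of these data known. The rule takes, from genes that reached 2 floors on either array, the 25 with the largest rise and the 25 with the largest fall, up to 8 members per list past 2-fold, and 24 fixed names, of which 21 were measured. It gave 196 genes, of which 57 had another probe set. In 25 of the 57 another probe set did not exceed the floor on either compared array, and in 2 it went the opposite way. Genes named beyond the rule were chosen after their values were seen, or named to account for a list. Promoters are RefSeq, GRCm38.p6. No build is named for the array, and no coordinates of its probe sets are given. The scripts were tested on simulated data (Python 3.11.15, pandas 2.3.3, numpy 2.4.6). The alternatives were 2 other floors, a floor from the 2 arrays alone, no scaling, quantile normalization, 2 other thresholds, the mean of a gene's probe sets and, chosen after seeing the data, unique probe sets only and list medians over all measured members.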

Additional observations from a re-analysis of the deposited data

Results flagged for a closer look

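There were 7 genes past 2-fold at day 3 that were past 2-fold the opposite way on another treated day, all against the same control array, and the difference between days was not tested. Lcn5, the epididymal lipocalin, had a log2 change of -4.26 at day 3 and 1.27 at day 6. Slc25a10, the mitochondrial dicarboxylate carrier, was at 1.18 after -1.42 at day 1, the probe set named Tyms-ps at 1.99 after -1.83, and Reep6 at 1.32 after -2.06. The other 3 went from a rise at day 1 to a fall at day 3: the lactate carrier Slc16a1 from 1.51 to -1.10, the transcription factor Jun from 1.29 to -1.12, and the gelatinase Mmp9 from 3.65 to -1.03. The day 3 falls of Slc16a1, Jun and Mmp9 were lost with the floor at the 60th percentile. Reep6 was chosen after its value was seen.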

How the results depend on the processing

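The fold threshold and the floor moved the counts. At a 3-fold threshold 108 probe sets rose and 69 fell, and at 1.5-fold 832 and 867. A floor at the 25th percentile gave 574 rises and 558 falls among probe sets, and 394 and 386 among genes; at the 60th, 167 and 134 probe sets and 135 and 108 genes. No scaling, quantile normalization and a floor from the 2 arrays alone kept every count of genes and probe sets within 1.5 times and moved none of the 53 list medians by more than the probe set error. The deposited arrays already had near-equal distributions, with scaling factors of 0.999 to 1.001. These alternatives could therefore change little, and no conclusion is drawn from them.

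List medians that moved by more than that error did so with the floor, with unique probe sets alone or with all measured members. At the 25th percentile the brown fat median was 1.53, that of T and NK cell markers -0.39, and that of neutrophil and mast cell markers reversed to -0.01. At the 60th the medians were 1.07 for brown fat, 0.18 for mitosis, 0.20 for the clock, 0.02 for neutrophil and mast cell markers and -1.17 for testis and epididymis markers. With unique probe sets alone, an alternative chosen after seeing the data, the last was -1.86 and that of red blood cell markers 0.14. With all measured members, those under the floor counted as 0 and also tried after seeing the data, the median was 0.12 for complement and Fc receptors and 0.00 for brown fat, chemokines, matrix proteases, DNA replication, neutrophil and mast cell markers and testis and epididymis markers. Fewer genes are above a higher floor; beyond that the cause was not tested.

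Of the 235 genes tried one by one, 65 lost their 2-fold call with the floor at the 60th percentile, all of them with a value under the floor of 537 on at least 1 array, and 12 with the mean of a gene's probe sets; none of these calls reversed. No paired analysis was possible because each group has 1 array. Dim genes, cell division genes among them, are limited by the signal over background.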
